A study of Mus musculus with 6 samples.

Results

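Iron handling in cultured mouse neutrophils was followed through 8 Affymetrix probe sets of 5 genes, out of 45101 probe sets on the array. Of these, 3 report Tfrc, 2 report Slc40a1, and Fth1, Slc11a1 and Hmox1 have 1 each. The probe sets were listed by identifier and were chosen by earlier results of the same comparison, miR-223 null against wild type. Their differences are therefore given as a description, without p-values of their own. Counts of these probe sets past a p-value threshold are given beside those of all probe sets tested and support nothing further. The manufacturer's 3 control rows for the transferrin receptor, which read the 3' end, the middle and the 5' end of the transcript, were set beside the gene's own probe sets.

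The 6 arrays comprised 3 of neutrophils from miR-223 null bone marrow and 3 of neutrophils from wild-type bone marrow. Cells of both genotypes had the same culture: marrow progenitors were held for 6 days in SILAC-IMDM, a medium for isotope labelling of proteins, with the growth factors G-CSF and SCF, and matured over a further 42 hours once SCF was withdrawn. Live cells were then taken by magnetic sorting. The labels give no strain, age, sex or null allele, and do not say whether replicates were separate mice or cultures, so every standard deviation (SD) and standard error (SE, from the unblocked fit) covers the spread among these arrays alone, and that spread may be technical. The table names other genes by identifier alone, and neutrophil markers, markers of other cells and miR-223 itself were not analysed here.

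Cells take up transferrin-bound iron through the transferrin receptor, encoded by Tfrc, which dividing and haemoglobin-making cells carry in large amounts. Iron not in use is stored in ferritin, whose heavy chain, the product of Fth1, oxidises iron for storage, and it leaves the cell through ferroportin, the product of Slc40a1. Slc11a1 encodes NRAMP1, a metal transporter of the phagosome membrane that withholds iron and manganese from engulfed microbes in macrophages and neutrophils. Hmox1 encodes haem oxygenase 1, which releases iron from haem. When iron is scarce, iron regulatory proteins bind stem-loops in some of these messages, stabilising Tfrc mRNA and holding back translation of Fth1 and Slc40a1 mRNA.

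The mature forms of the microRNA that the null cells lack, from RefSeq on build GRCm38.p6, are shown because they define the genotype. In each the seed, bases 2 to 8, is in capitals. They lie on the plus strand of chromosome X, at chrX:96242884-96242905 and chrX:96242842-96242864.
mmu-miR-223-3p: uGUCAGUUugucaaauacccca
mmu-miR-223-5p: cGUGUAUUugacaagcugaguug
MicroRNAs act mostly through seed pairing in the 3' ends of messages, and those of the 5 genes were not searched here.

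Upstream sequence was examined as 250 bases before each RefSeq start, in which Tfrc and Fth1 had 2 windows each and Slc11a1 had 1. Slc40a1 and Hmox1 had no window. The core of the hypoxia-inducible factor response element, ACGTG on either strand, occurred in 1 of the Tfrc windows and in no window of Fth1 or Slc11a1. This core is shown in capitals within 60 bases of Tfrc at chr16:32608872-32608931, plus strand, GRCm38.p6, because transferrin receptor transcription is known to answer to low oxygen.
Tfrc: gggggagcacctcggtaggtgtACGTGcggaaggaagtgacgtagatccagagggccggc
The match begins 228 bases before the later annotated start and spans the earlier one, so that most of the stretch lies downstream of the earlier start. The same core is present in 16.6% of 32817 such windows. The antioxidant response element core, TGACNNNGC on either strand and known from ferritin and haem oxygenase genes, was in none of the windows of these 3 genes and in 10.2% of all windows. Sequence beyond the 250 bases was not searched and Hmox1 had no window, so these windows cannot say whether a gene has the element elsewhere. A match of letters is a description and not a bound site.

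All values are log2 intensities as deposited. Array medians lay between 4.71 and 4.73, and all 8 probe sets passed the filter that kept 27022 probe sets with a mean of at least 4.08. Replicate numbers were treated as pairs in a second fit with the number as a block, since arrays of the same number deviated together. Some arrays of unlike number did so too, so the pairing is an assumption. Differences are null minus wild type, and a difference of -1 is a halving of the signal.

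The 3 Tfrc probe sets and Slc11a1 read lower in null neutrophils in every replicate pair, Fth1 read higher in every pair by a small amount, and ferroportin and haem oxygenase 1 had no common direction. Of the 8 probe sets, 4 were lower in 3 of 3 pairs, as were 25.0% of all kept probe sets, and 1 was higher in 3 of 3 pairs, as were 21.6%. The groups did not overlap for 3 probe sets that were lower in null arrays, against 8.68% of all kept probe sets, and for 1 that was higher, against 8.12%. In the unblocked limma fit 0 of the 8 passed a Benjamini-Hochberg adjusted p of 0.05, where 0.189% of all passed, and 4 had an unadjusted p under 0.05, where 10.7% of all did. With the replicate block 4 of the 8 passed, where 10.0% of all passed, namely the 3 Tfrc probe sets and Slc11a1. These counts come from the comparison that chose the probe sets and support nothing further. The blocked count was 2 of 8 without the replicate 2 pair (1422966_A_AT and 1422967_A_AT), where 2.24% of all passed. It was 3 of 8 without the replicate 3 pair, where Slc11a1 no longer passed and 8.58% of all did, and 0 of 8 without the intensity trend in the variance, where 0.707% of all passed. Without the replicate 1 pair 4 of 8 passed, against 7.57% of all, with the Slc40a1 probe set 1447227_AT in place of the Tfrc probe set 1452661_AT.

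**Figure D1:**
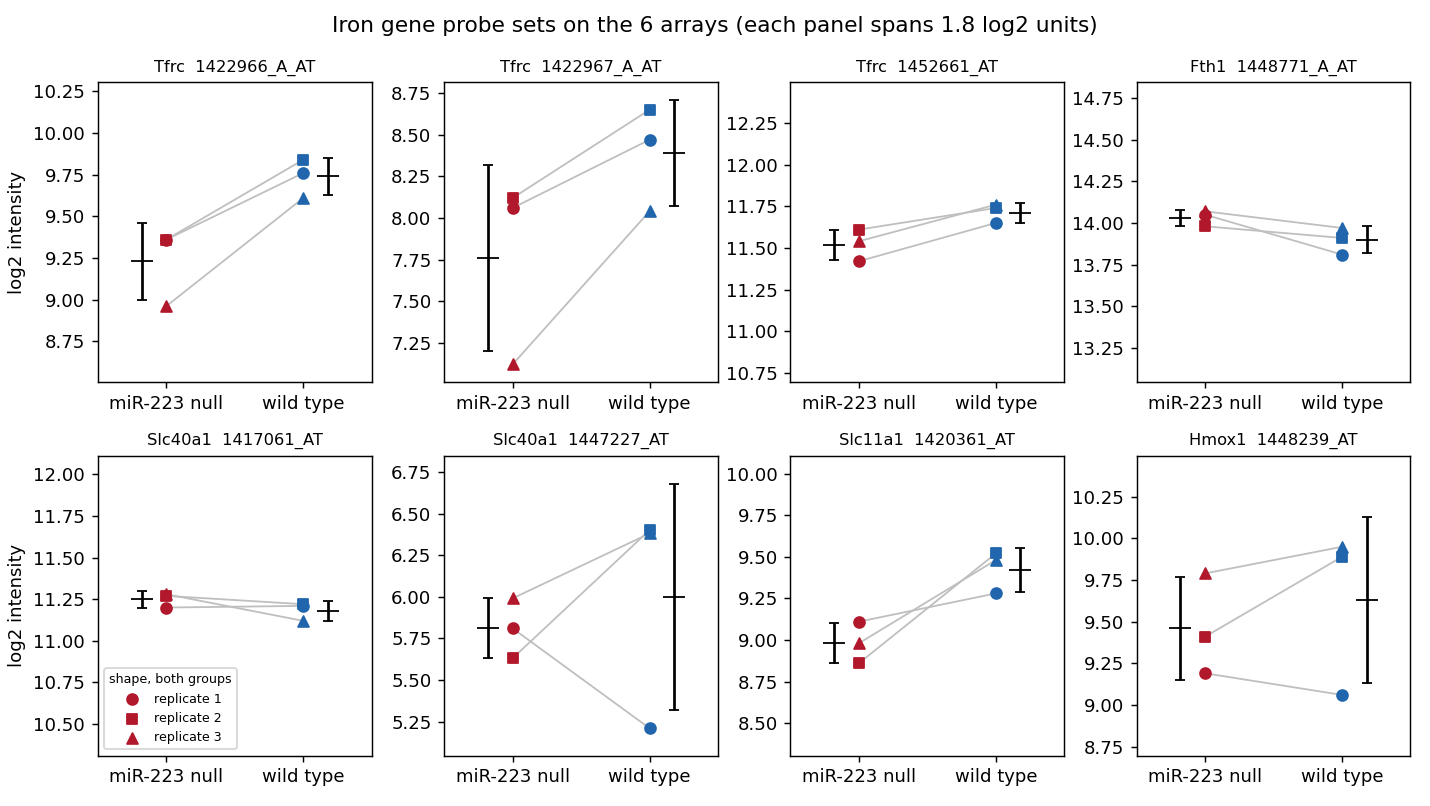
Log2 intensity of each iron gene probe set on the 6 arrays, miR-223 null in red on the left and wild type in blue on the right, with grey lines joining arrays of the same replicate number and black bars for mean ± SD (n = 3). The null points lie below all wild-type points for 1422966_A_AT, 1452661_AT and 1420361_AT, and those of 1447227_AT and 1448239_AT overlap widely.

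Tfrc message, the uptake arm, was lower in null cells by every probe set, but by unequal amounts. Probe set 1422966_A_AT read 9.36, 9.36 and 8.96 in null arrays 1 to 3, against 9.76, 9.84 and 9.61 in wild-type arrays 1 to 3. All null values lay below all wild-type values, with a gap of 0.25 between the groups. Its mean was 9.23 ± 0.23 in null and 9.74 ± 0.11 in wild-type arrays (SD, n = 3 each), a difference of -0.51 (SE 0.14), so that the null signal was 70.3% of the wild-type signal. In these cultures fewer cells with the message and less message per cell cannot be told apart.

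Probe set 1422967_A_AT had the largest difference of the 8. It read 8.06, 8.12 and 7.12 in null arrays, against 8.47, 8.65 and 8.04 in wild-type arrays. Null 3 was far below the other arrays, and null 1 and null 2 lay just above wild type 3, so the groups overlapped. The means were 7.76 ± 0.56 in null and 8.39 ± 0.32 in wild-type arrays (SD, n = 3 each), with a difference of -0.62 (SE 0.29). Without null 3 the difference was -0.30.

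Probe set 1452661_AT read 11.42, 11.61 and 11.54 in null arrays, against 11.65, 11.74 and 11.76 in wild-type arrays. The groups did not overlap, though the gap was 0.04. Its difference was the smallest of the Tfrc probe sets, -0.19 (SE 0.07), which left the null signal at 87.6% of the wild-type signal. The difference of 1422966_A_AT minus that of 1452661_AT was -0.17, -0.34 and -0.44 in the pairs of replicates 1, 2 and 3, and that of 1422967_A_AT minus that of 1452661_AT was -0.19, -0.40 and -0.70. These within-array gaps overlapped between the genotypes.

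The control rows, which read the same transcript through probes of their own, were closer to the first pair of Tfrc probe sets than to 1452661_AT. The 3' control row read 8.61, 8.47 and 7.90 in null arrays, against 8.83, 8.90 and 8.68 in wild-type arrays. The middle row read 7.11, 7.12 and 6.29 in null arrays, against 7.40, 7.60 and 7.22 in wild-type arrays. The 5' row read 7.25, 7.09 and 6.30 in null arrays, against 7.63, 7.73 and 7.14 in wild-type arrays. Null 3 was the lowest array in each row, and only the 5' row had overlapping groups.

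The control rows differed between genotypes by -0.48 at the 3' end (SE 0.19), -0.57 in the middle (SE 0.24) and -0.62 at the 5' end (SE 0.27), inside the range of -0.62 to -0.19 that the gene's own probe sets spanned. Averaged over the 3 Tfrc probe sets, the difference was -0.44, from 9.51 ± 0.26 in null and 9.95 ± 0.14 in wild-type arrays (SD, n = 3 each). Averaged over the 3 control rows it was -0.55. In the pairs of replicates 1, 2 and 3 the Tfrc average differed by -0.35, -0.38 and -0.60, and the control average by -0.30, -0.52 and -0.85. The probe sets and the control rows were measured on the same RNA and are not independent of each other.

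The Tfrc readings shared a pattern across arrays that genotype alone did not describe. In 5 of the 6 Tfrc probe sets and control rows, null 3 was the lowest null array and wild type 3 the lowest wild-type array. Null 3 minus the mean of null 1 and null 2 was -0.41 for 1422966_A_AT, -0.97 for 1422967_A_AT and -0.87 to -0.64 for the control rows. The exception was 1452661_AT, where null 3 lay 0.03 above that mean and wild type 3 was the highest wild-type array. Without null 3 the average difference was -0.29 for the Tfrc probe sets and -0.30 for the control rows. The 5' minus the 3' control row, only an indirect reading of RNA integrity, was -1.45 ± 0.14 in null and -1.31 ± 0.21 in wild-type arrays (SD, n = 3 each). It was lower in null in 3 of 3 pairs, by differences of -0.16, -0.20 and -0.06 for replicates 1, 2 and 3, and the groups overlapped. It was lowest on the replicate 3 arrays, at -1.60 in null 3 and -1.54 in wild type 3, against -1.38 to -1.18 on the other 4, and its part in the Tfrc difference was not tested.

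**Figure D2:**
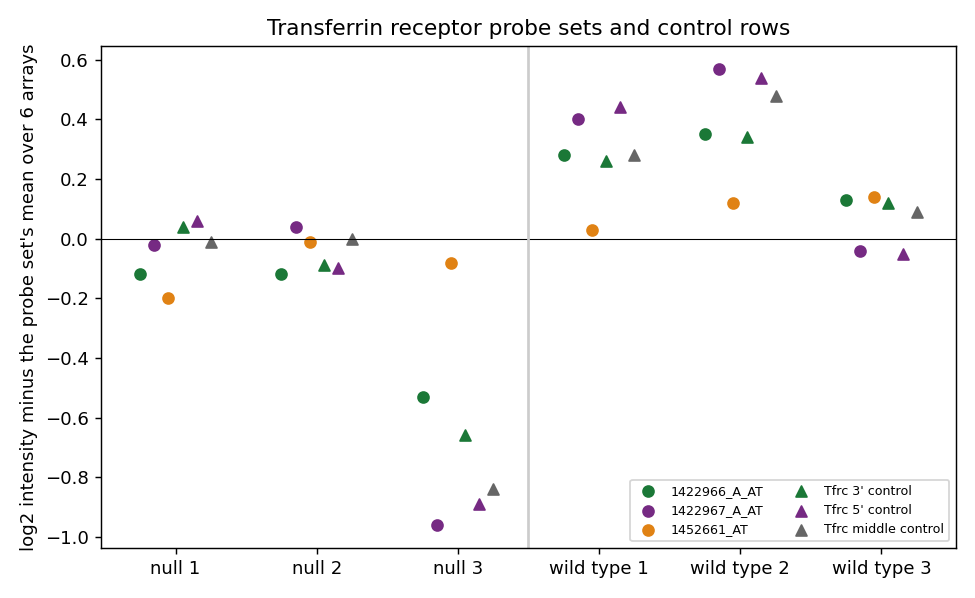
Each of the 3 Tfrc probe sets (circles) and 3 transferrin receptor control rows (triangles) on the 6 arrays, null arrays on the left, as log2 intensity minus that probe set's mean over all arrays. In null 3, 5 of the 6 lie between -0.96 and -0.53, while 1452661_AT is at -0.08.

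Slc11a1, the phagosomal metal transporter, was lower in null cells and did not share the low reading of null 3. Probe set 1420361_AT read 9.11, 8.86 and 8.98 in null arrays, against 9.28, 9.52 and 9.48 in wild-type arrays. The groups did not overlap, with a gap of 0.17, and null 1 and wild type 1 were the closest to each other. The means were 8.98 ± 0.12 in null and 9.42 ± 0.13 in wild-type arrays (SD, n = 3 each). The difference was -0.44 (SE 0.11), a null signal of 73.7% of the wild-type signal. By pair it was -0.17, -0.65 and -0.50 for replicates 1, 2 and 3, and it was -0.58 when both replicate 1 arrays were left out.

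Fth1, the ferritin heavy chain, read slightly higher in null cells, near the top of the scale. Probe set 1448771_A_AT read 14.05, 13.98 and 14.07 in null arrays, against 13.81, 13.91 and 13.97 in wild-type arrays. The lowest null array exceeded the highest wild-type array by 0.01. The means were 14.03 ± 0.05 in null and 13.90 ± 0.08 in wild-type arrays (SD, n = 3 each), and the difference was 0.14 (SE 0.05), or 1.10-fold. The pairs differed by 0.24, 0.08 and 0.10. The highest reading of any probe set was 14.98 to 14.99 on each array, so these values lay near the top of the scale but below its highest readings. Whether differences are compressed at this level was not tested.

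The probe sets of Slc40a1, which encodes ferroportin, gave different pictures. The brighter, 1417061_AT, read 11.20, 11.27 and 11.28 in null arrays, against 11.21, 11.22 and 11.12 in wild-type arrays. The groups overlapped, and the pairs differed by -0.02, 0.05 and 0.17, for a mean difference of 0.07 (SE 0.07). The SD was 0.05 in null and 0.06 in wild-type arrays, below the median SD of 0.15 over all kept probe sets. The readings of this probe set thus lay within 0.17 of each other on all 6 arrays.

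The dimmer ferroportin probe set, 1447227_AT, read 5.81, 5.63 and 5.99 in null arrays, against 5.21, 6.40 and 6.38 in wild-type arrays. Wild type 1 was the lowest array and the other wild-type arrays the highest, with the null values between them. The pairs differed by 0.60, -0.77 and -0.39, and the mean difference of -0.19 had an SE of 0.31. Leaving out wild type 1 gave -0.58, while leaving out wild type 2 gave 0.02 and leaving out wild type 3 gave 0.01. The average of both Slc40a1 probe sets differed by -0.06, with pair values of 0.29, -0.36 and -0.11.

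Hmox1, the haem-degrading enzyme, varied more between replicates than between genotypes. Probe set 1448239_AT read 9.19, 9.41 and 9.79 in null arrays, against 9.06, 9.89 and 9.95 in wild-type arrays. Replicate 1 was the lowest array of both genotypes, at -0.41 from the mean of the other null arrays and -0.86 from the mean of the other wild-type arrays. The means were 9.46 ± 0.31 in null and 9.63 ± 0.50 in wild-type arrays (SD, n = 3 each), with a difference of -0.17 (SE 0.26). The pairs differed by 0.13, -0.48 and -0.16. Leaving out wild type 1 gave -0.45, while leaving out null 1 gave -0.03 and leaving out wild type 3 gave -0.01.

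**Figure D3:**
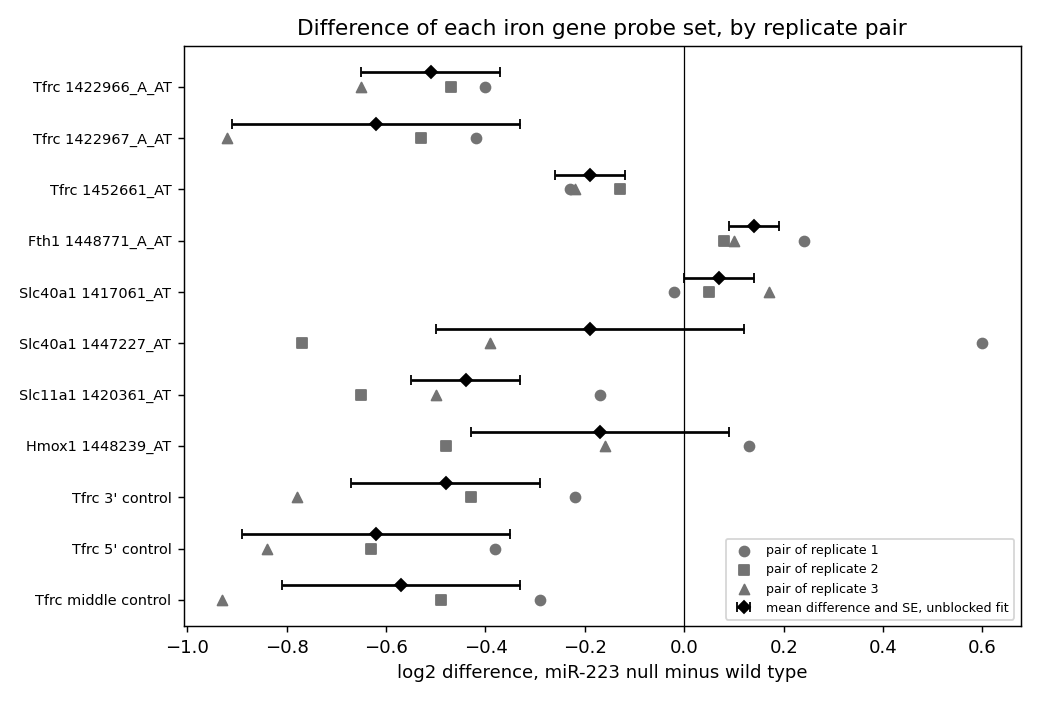
Log2 difference, miR-223 null minus wild type, of the 8 iron gene probe sets and the 3 transferrin receptor control rows, with grey symbols for the replicate pairs and black diamonds for the mean difference ± SE of the unblocked fit. The Tfrc and Slc11a1 pairs all lie left of 0 and those of Fth1 right of 0, while 1447227_AT runs from -0.77 to 0.60.

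The differences can be set against those of the whole array. The median absolute difference over the 27022 kept probe sets was 0.11, and 95% of them were within 0.42. The probe sets 1422967_A_AT, 1422966_A_AT and 1420361_AT lay beyond that bound, and the other 5 within it, while 7 of the 8 exceeded the median. The median signed difference of the 8 probe sets was -0.19, where that of all kept probe sets was -0.011. Because this same comparison chose the 8 probe sets, their place among all probe sets is a description and supports nothing further. Tfrc counts 3 times and Slc40a1 2 times among them.

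**Figure D4:**
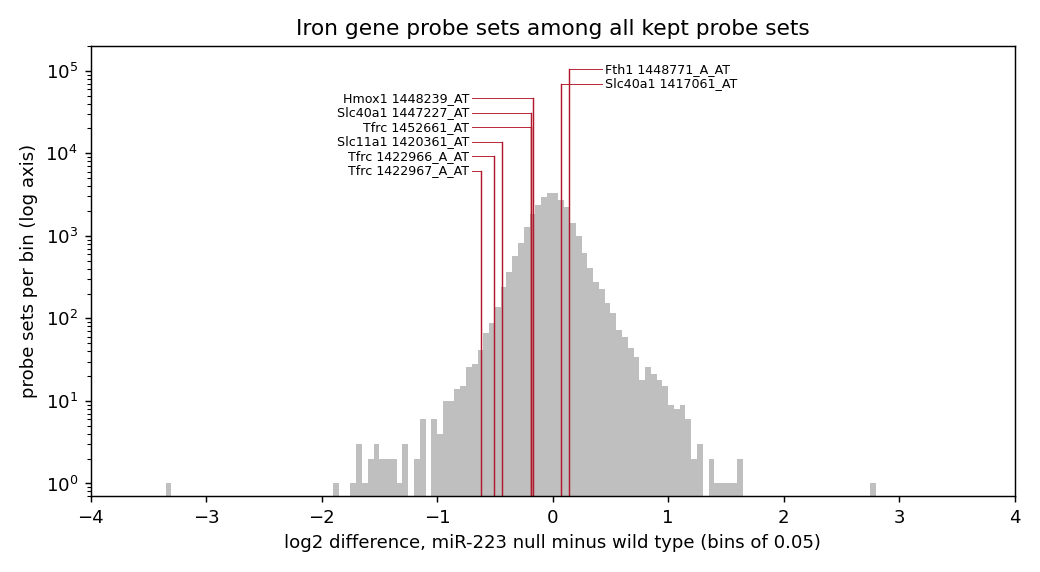
Number of kept probe sets per bin of 0.05 log2 units of the null minus wild-type difference (log axis), with red lines at the 8 iron gene probe sets. The lines run from -0.62 for 1422967_A_AT to 0.14 for Fth1.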

How the data were processed

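The deposited table holds log2 intensity values of 45101 probe sets on 6 arrays. Per the submitters' processing notes GCOS was used; the background correction, normalization and probe summary are not given in the sources used here. The log2 scale was read from the range of the values. Genes of the 8 probe sets come from the list that defined them, and no other probe set was paired with a gene, so the planned iron pathway lists, marker lists and genes of like pattern were not run.

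After 64 control probe sets were set aside, the 27022 probe sets whose mean reached the 40th percentile were used. The difference null minus wild type was fitted with limma 3.58.1 in R 4.3.3 (eBayes with intensity trend, Benjamini-Hochberg adjusted p under 0.05), without and with the replicate number as a block. The control rows were fitted in the same way with all controls kept. The replicate numbers were taken to pair arrays because deviations from the group means correlated at 0.70, 0.30 and 0.48 in the pairs of replicates 1, 2 and 3, each over 0.1. This pairing comes from the data, and the 0.1 threshold did not single it out. Null 3 with wild type 2 reached 0.41, above the 0.30 of the replicate 2 pair. Null 2 with wild type 3 reached 0.21. The code for these fits was also run on simulated data. Those data were built with the replicate effects of these arrays, so they cannot test the pairing, and nothing is drawn from them here. The rule for named features was all 8 probe sets and the 3 control rows, besides pathway genes, the 3 probe sets of most similar pattern and markers, which need gene names. Probe sets, lists and tests were chosen with earlier results of these data known. The planned exact test of the 5' minus 3' control difference is not given, because 3 against 3 arrays cannot pass 0.05.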

Additional observations from a re-analysis of the deposited data

How the results depend on the processing

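None of the 8 differences changed direction after quantile normalization or median centring. Leaving out 1 array gave differences of -0.58 to -0.37 for 1422966_A_AT, -0.80 to -0.30 for 1422967_A_AT, -0.23 to -0.14 for 1452661_AT, -0.51 to -0.38 for 1420361_AT, 0.10 to 0.17 for 1448771_A_AT, 0.03 to 0.09 for 1417061_AT, -0.45 to -0.01 for 1448239_AT and -0.58 to 0.02 for 1447227_AT, which alone changed sign (0.02 without wild type 2 and 0.01 without wild type 3, and 0.11 with the block and without the replicate 2 pair). For the 3', middle and 5' control rows the ranges were -0.62 to -0.27, -0.71 to -0.29 and -0.80 to -0.33, each smallest without null 3. With the replicate block the differences were the same, for example -0.44 for 1420361_AT, which was -0.58 without both replicate 1 arrays and -0.58 to -0.33 with the block when 1 pair was left out. Without a block 51 of all kept probe sets were called, 0 to 58 when 1 array was left out (0 without null 2 or wild type 2, where limma gave 2064 and 1753 at an unadjusted p under 0.05), and 1072 without both replicate 1 arrays, where 1420361_AT was the 1 iron gene probe set called. The block gave 2703, 191 without the intensity trend and 606, 2045 and 2319 without the pair of replicate 2, 1 or 3. With the controls kept the counts were 51, 0 to 59, 1067, 2680, 191, and 618, 2023 and 2352 in the same order. The cause was not tested. The 5' minus 3' difference of the control rows stayed between -0.26 and -0.06 when 1 array was left out. Alternatives for pathway genes, which need gene names, were not run.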
